A study of Homo sapiens with 12 samples.

Results

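The genes of ubiquitin ligases, ubiquitin-conjugating enzymes and ubiquitin-specific proteases were examined in HEK293 cells after transfection of a miR-1825 mimic. The members were chosen by symbol: every named gene whose symbol has no hyphen and starts with FBXO, FBXL, FBXW, KLHL, TRIM, RNF or UBE2, or with CUL or USP followed by a digit, leaving out FBXO5. This gave 308 of the 14884 named genes on the array, with 69 RNF, 62 TRIM, 50 USP, 35 KLHL, 32 FBXO, 27 UBE2, 15 FBXL, 10 FBXW and 8 CUL genes. By RefSeq biotype 299 are protein-coding and 9 are transcribed pseudogenes. A symbol is not always a function: USP6NL encodes a GTPase-activating protein of the TBC family, not a protease.

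Ubiquitin is a small protein that is attached to other proteins and marks many of them for the proteasome. An activating enzyme passes it to a conjugating enzyme, here the UBE2 genes, and a ligase then brings that enzyme to the substrate. In cullin-RING ligases a cullin is the scaffold, and the substrate is held by an exchangeable receptor such as an F-box protein (FBXL, FBXO, FBXW) on CUL1 or a KLHL protein on CUL3. TRIM and most RNF proteins carry the RING domain themselves, and the ubiquitin-specific proteases (USP) remove ubiquitin again. Most cullins are activated by attachment of NEDD8, a relative of ubiquitin with its own activating and conjugating enzymes. MicroRNAs pair through their seed with mRNAs and lower the mRNA or its translation, and a mimic is a synthetic RNA duplex that supplies the mature strand.

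HEK293 is an adenovirus-transformed human embryonic kidney line. There were 12 samples, 6 of cells that had received the miR-1825 mimic and 6 of cells that had received a non-targeting control siRNA. Both RNAs were used at 5 nM with the same reagent, and RNA was taken after 24 h, so both groups share the transfection itself and untransfected cells are not among the samples. Whether the 6 samples of a group came from separate cultures is not stated, so every p-value reflects only how much these samples vary, possibly for technical reasons. In RNA from whole cultures, fewer cells of a kind and less RNA per cell cannot be told apart. The series title gives the search for mRNA targets of miR-1825, a microRNA linked there to amyotrophic lateral sclerosis, as the purpose.

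The mature sequence of miR-1825 (RefSeq, GRCh38.p14, chr20:32237830-32237847, plus strand) is shown because its seed, bases 2 to 8 in capitals, is what the mimic adds to the cells. No other name among 2370 mature human microRNAs in the RefSeq table shares all of bases 2 to 8. One, miR-199a-5p, shares bases 2 to 7, and it is printed with these in capitals. It is given at chr1:172144592-172144614 and at chr19:10817469-10817491, both on the minus strand.
hsa-miR-1825: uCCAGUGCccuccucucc
hsa-miR-199a-5p: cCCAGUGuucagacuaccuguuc
The seed of miR-1825 pairs with the letters GCACUGG in an mRNA. Sites in the members' mRNAs were not analysed here.

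Values are the authors' expression per transcript cluster, the array's unit that gathers the probes of a gene, and were taken as log2 from their range. Arrays of a group correlated between 0.990 and 0.994 over all 53617 clusters. All 7 HEK293 markers measured had means no lower than the all-cluster median (4.48), among them GAL at 10.52 ± 0.05 and EN2 at 9.14 ± 0.09 in controls (SD, n = 6). Markers of leukocytes (4 measured) and fibroblasts (3 measured) averaged between 3.94 and 4.65 on every array. Of these, 1 leukocyte marker, LCP1, and 2 fibroblast markers, LUM and THY1, lay above the all-cluster median, and the others below it. In controls LCP1 was at 5.08, THY1 at 5.30 and LUM at 5.68, beside 5.59 for the HEK293 marker PAX2, so this median does not separate the cell types. The 7 markers of epithelial cancer lines averaged 5.99 to 6.18 in controls and 5.89 to 6.07 after the mimic. In controls they ranged from ESRP1 at 3.29 ± 0.06 and CLDN4 at 4.16 ± 0.18, both below the all-cluster median, to EPCAM at 7.95 ± 0.12 and KRT18 at 9.74 ± 0.06 (SD, n = 6). After the mimic 6 of these 7 had a lower mean, with unadjusted p under 0.05 for CLDN7 (-0.22, limma adjusted p = 0.379) and KRT18 (-0.10, limma adjusted p = 0.398). Their part in the differences below was not tested.

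No member passed a Benjamini-Hochberg adjusted p of 0.05 in the limma comparison of mimic with control over all clusters (limma adjusted p at least 0.225). In that test 6 of all 53617 clusters were called (0.0112%), and of all 14884 named genes 0 were. At an unadjusted p under 0.05 there were 32 members (10.4%, beside 10.9% of all named genes), 20 higher and 12 lower after the mimic. The 20 are 6.49% of the members, beside 6.69% of all named genes, and the 12 are 3.90%, beside 4.19%. These shares are near the background, as are the 29 of 254 members (11.4%, beside 12.1%) with a mean no lower than the median of all clusters, 4.48. The scaling moved the split of all named genes, and that of the members with it. After quantile normalization 13 members were higher (4.22%) and 18 lower (5.84%) at that level, beside 5.37% and 5.27% of all named genes. With arrays centred on their medians 26 were higher (8.44%) and 7 lower (2.27%), beside 7.78% and 2.71%.

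Differences, mimic minus control on the log2 scale, were small throughout. The median log2 fold change of the 308 members was 0.004, beside 0.0002 over all named genes, and after quantile normalization both medians were -0.006. Of the 254 members with a mean no lower than the all-cluster median, 208 had a 95% interval that lay wholly within a 1.2-fold change in either direction. The extremes among those 254 were 0.866-fold (FBXL19) and 1.30-fold (RNF216P1, a pseudogene). In 8 members the groups did not overlap on any array. CUL5, UBE2MP1, USP1, USP16 and USP47 were higher on all mimic arrays than on all controls (1.62% of members, beside 1.34% of all named genes). FBXL19, TRIM36 and TRIM47 were lower (0.974% of members, beside 0.403%). All 8 are among the 254 brighter members, where the shares were 1.97% and 1.18%, beside 1.83% and 0.486% of named genes of that brightness.

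**Figure D1:**
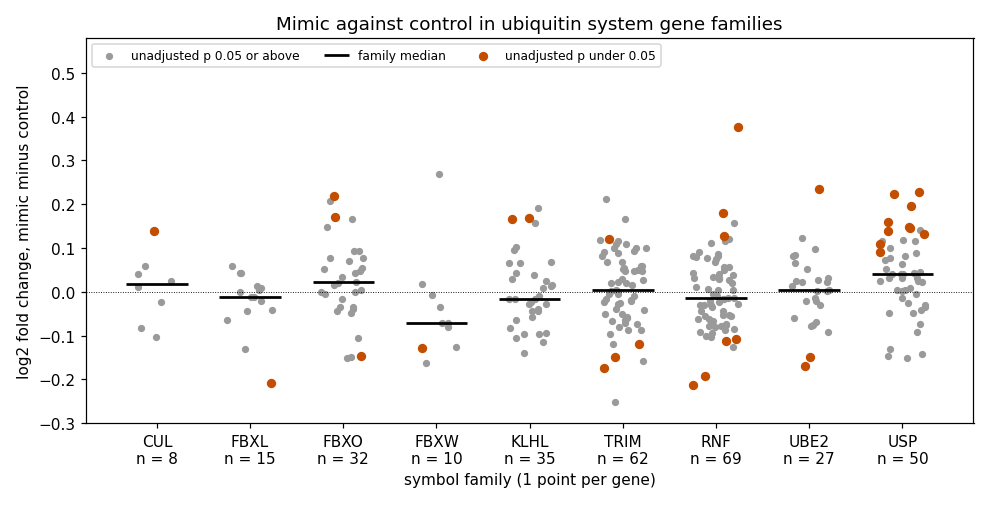
Log2 fold change (mimic minus control, vertical axis) of each of the 308 genes by symbol family (horizontal axis, points spread sideways for visibility); black bars are family medians and orange points have an unadjusted p under 0.05. The USP genes have 10 orange points, all above 0, while the other families have orange points on both sides or at most 3 in all.

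FBXL19 had the most negative difference among members with a mean no lower than the all-cluster median. It encodes an F-box protein with a CXXC zinc finger that binds unmethylated CpG DNA. It was placed among the members with its difference on these arrays already known, so its values describe and do not test. The controls ran from 7.92 through a median of 8.04 to 8.13, and the mimic arrays from 7.75 through 7.82 to 7.91 (log2 values). The lowest control lay just above the highest mimic array. The mean went from 8.03 ± 0.08 to 7.83 ± 0.06 (SD, n = 6 each), a log2 difference of -0.21 with a 95% interval of -0.32 to -0.10 (limma adjusted p = 0.229 over all clusters). The difference was -0.24 after quantile normalization and -0.19 with arrays centred on their medians.

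**Figure D2:**
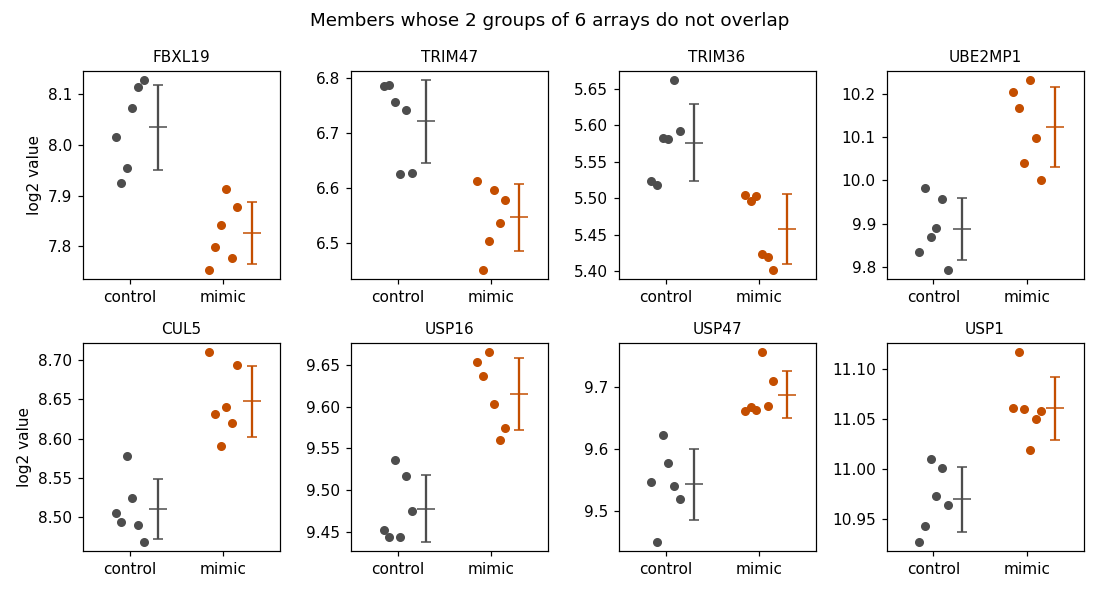
Log2 values (vertical axis, a separate range in each panel) of the 8 members whose 6 control and 6 mimic arrays do not overlap; each point is an array, and the line beside the points is the mean ± SD of the 6 arrays. In FBXL19 the highest mimic array is at 7.91 and the lowest control at 7.92, and in USP47 the lowest mimic array is at 9.66 and the highest control at 9.62.

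Among the conjugating enzymes 1 gene was higher and 2 were lower at an unadjusted p under 0.05, of 27. These are 3.70% and 7.41% of the family, beside 6.69% and 4.19% of all named genes. The higher one was UBE2MP1, a pseudogene of UBE2M, the conjugating enzyme of NEDD8. Its controls lay between 9.79 and 9.98 with a median of 9.88, and its mimic arrays between 10.00 and 10.23 with a median of 10.13. The log2 difference was 0.24, with a 95% interval of 0.12 to 0.35 (limma adjusted p = 0.225). Transcripts of UBE2M may bind the same probes, which was not tested, so the source gene is uncertain. No row carried the name UBE2M, so that gene could not be compared. UBE2S, which extends ubiquitin chains for the anaphase-promoting complex, had a log2 difference of -0.15, with a 95% interval of -0.29 to -0.01 (limma adjusted p = 0.445). All 6 mimic arrays of UBE2S lay below the control mean, but the groups overlapped, at 8.16 to 8.53 in controls and 8.07 to 8.26 after the mimic. UBE2L6, a conjugating enzyme of the ubiquitin-like protein ISG15, had -0.17 (limma adjusted p = 0.365). UBE2N, a conjugating enzyme of DNA damage and immune signalling, had -0.03 with a 95% interval of -0.21 to 0.15, and its sign turned without control replicate 6 or mimic replicate 1.

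Of the 8 cullins measured, CUL5 alone had an unadjusted p under 0.05. This 1 gene is 12.5% of the family, beside 6.69% of all named genes that were higher at that level. CUL5 is the scaffold of ligases whose receptors carry a SOCS box. The control arrays of CUL5 ran from 8.47 through a median of 8.50 to 8.58, and the mimic arrays from 8.59 through 8.64 to 8.71. All mimic arrays were thus above all controls, by a narrow margin. The log2 difference was 0.14, with a 95% interval of 0.05 to 0.22 (limma adjusted p = 0.269). CUL2, the scaffold of the VHL ligase, had 0.06, CUL4B had 0.04 and CUL3, the partner of KLHL proteins, had 0.02. CUL4A had -0.02. CUL1, the scaffold of the F-box ligases, had 0.01 with a 95% interval of -0.07 to 0.09, and its sign turned after quantile normalization. CUL7 and CUL9, 2 related large cullins, had -0.10 (95% interval -0.24 to 0.04) and -0.08 (-0.22 to 0.05). Single arrays moved these values, to -0.06 for CUL7 without control replicate 3 and to -0.04 for CUL9 without mimic replicate 4. The groups overlapped in all cullins but CUL5.

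Of the 57 F-box genes, 2 were higher and 3 were lower at an unadjusted p under 0.05. By family, 6.25% of FBXO were higher and 3.125% lower, 6.67% of FBXL were lower and 10% of FBXW were lower. Of all named genes 6.69% were higher and 4.19% lower. FBXO10 and FBXO32 were the higher ones. The lower ones were FBXL19, FBXW2 and 1 FBXO gene with a mean below the all-cluster median. FBXO32 encodes atrogin-1, a ligase subunit known from muscle wasting, and its control arrays ran from 5.64 to 6.22 and its mimic arrays from 5.87 to 6.30. The log2 fold changes were 0.22 for FBXO32 and 0.17 for FBXO10 (limma adjusted p = 0.457 and 0.445). FBXW2 had -0.13 (limma adjusted p = 0.395), and control replicate 3, at 8.66, stood above the other controls at 8.42 to 8.48. Without that array its log2 fold change was -0.09. FBXL14, whose substrates include the transcription factor SNAI1, also had -0.13, with an unadjusted limma p of 0.0545. FBXW9 had -0.13 as well, with an unadjusted limma p of 0.0852. FBXO11, a ligase subunit for BCL6, had 0.05. FBXW11, also called beta-TrCP2, which recognises phosphorylated beta-catenin and I-kappa-B, had -0.01, with a 95% interval of -0.10 to 0.09 and a sign that turned with arrays centred on their medians. The medians of the families were 0.02 for FBXO, -0.01 for FBXL and -0.07 for FBXW, where 8 of 10 genes had a lower mean. That of FBXL was 0.003 with arrays centred on their medians. Leaving out single arrays gave medians of 0.004 to 0.04 for FBXO, -0.03 to 0.006 for FBXL and -0.09 to -0.03 for FBXW.

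KLHL8 and KLHL28 were the 2 of 35 KLHL genes at an unadjusted p under 0.05, and both were higher (5.71%, beside 6.69% of all named genes). KLHL8 went from 8.19 ± 0.08 to 8.36 ± 0.07 (SD, n = 6 each), a log2 difference of 0.17 (limma adjusted p = 0.292). Its mimic arrays lay between 8.27 and 8.46 and its controls between 8.10 and 8.30, so the edges of the groups overlapped. KLHL28 also had 0.17 (limma adjusted p = 0.301). KLHL20, whose ligase acts on DAPK1 and PML, had 0.06. KLHL12, whose ligase modifies a COPII coat subunit, had 0.01, which turned negative after quantile normalization. The family median was -0.02, but 0.02 in the 25 genes with a mean no lower than the all-cluster median, and it was 0.002 without control replicate 3 and 0.002 without mimic replicate 2.

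In the TRIM family 1 gene was higher and 3 were lower at an unadjusted p under 0.05, of 62. These are 1.61% and 4.84% of the family, beside 6.69% and 4.19% of all named genes. TRIM47 had the smallest p. The 6 controls of TRIM47 lay between 6.63 and 6.79 with a median of 6.75, and the mimic arrays between 6.45 and 6.61 with a median of 6.56. The groups did not overlap, and the log2 difference was -0.17, with a 95% interval of -0.28 to -0.07 (limma adjusted p = 0.258). TRIM56, a ligase of innate immune signalling, had -0.15 (limma adjusted p = 0.319), with all 6 mimic arrays below the control mean. TRIM36 was lower as well (-0.12, limma adjusted p = 0.351), and TRIM59 was higher (0.12, limma adjusted p = 0.335). TRIM28, the corepressor KAP1 that silences retroelements with KRAB zinc finger proteins, had -0.05 with a 95% interval of -0.14 to 0.03. TRIM25, the ligase that acts on the RNA sensor RIG-I, had -0.03 with a 95% interval of -0.12 to 0.06. TRIM33, a ligase of TGF-beta signalling, had 0.09.

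RNF genes had 3 higher and 4 lower members at an unadjusted p under 0.05, of 69. These are 4.35% and 5.80% of the family, beside 6.69% and 4.19% of all named genes. RNF216P1 had the largest difference of all members, a log2 difference of 0.38, but with a 95% interval of 0.03 to 0.73 (limma adjusted p = 0.438). Its control arrays alone spread from 5.27 to 6.23, and those of the mimic from 5.88 to 6.56. It is a pseudogene of RNF216 and shares sequence with it, so the assignment is uncertain. RNF25 had 0.18 (limma adjusted p = 0.378), with mimic arrays at 8.30 to 8.56 and controls at 8.05 to 8.42. RNF11 had -0.11 (limma adjusted p = 0.395). RNF4, which ubiquitinates SUMO-modified proteins, had 0.04. RNF39, RNF112 and RNF225 were lower and RNF170, a ligase of the endoplasmic reticulum that acts on inositol trisphosphate receptors, was higher, each with a limma adjusted p of 0.424 or more. The family median of -0.01 was 0.0004 with arrays centred on their medians, and -0.03 without control replicate 6.

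The deubiquitinase family leaned to one side. Of 50 USP genes, 36 had a higher and 14 a lower mean after the mimic, with a median log2 difference of 0.04. Of all named genes 7457 had a higher and 7427 a lower mean. At an unadjusted p under 0.05, 10 were higher and 0 lower, while 0 passed with limma after adjustment. The 10 are 20.0% of the family, beside 6.69% of all named genes in that direction. Among genes with a mean no lower than the all-cluster median they were 9 of 43 (20.9%), beside 8.36%. Without the 2 pseudogenes and USP6NL there were 8 of 47. Of the 50 USP genes, 35 lie in the brightest 25% of clusters, with a mean of at least 6.29. Of the 6432 named genes there, 11.04% were higher and 3.02% lower at an unadjusted p under 0.05. In these named genes 3853 had a higher and 2579 a lower mean, so genes of that brightness were also shifted to higher values. The lean of the USP family was read off from 9 families after their values were seen, so it describes these arrays only. After quantile normalization 6 were higher (12%, beside 5.37% of all named genes) and 0 lower, with a median of 0.02 beside -0.006. With arrays centred on their medians 13 were higher (26%, beside 7.78%) and 0 lower, with a median of 0.06 beside 0.02. Leaving out single arrays gave 7 to 12 higher and 0 to 1 lower. The mean of all rows of a gene gave 10 higher (20%, beside 6.55%) and 1 lower. A replicate block gave 8 higher (16%, beside 5.21%) and 0 lower, and a trend and robust prior 13 (26%, beside 8.19%) and 0.

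USP16 and USP47 were the members of the family with the smallest p. USP16 removes ubiquitin from histone H2A. Its control arrays ran from 9.44 through a median of 9.46 to 9.54, and its mimic arrays from 9.56 through 9.62 to 9.67. The log2 difference was 0.14, with a 95% interval of 0.05 to 0.22 (limma adjusted p = 0.269). USP47, which deubiquitinates DNA polymerase beta in base excision repair, ran from 9.45 through 9.54 to 9.62 in controls and from 9.66 through 9.67 to 9.76 after the mimic. Its log2 difference was 0.15, with a 95% interval of 0.05 to 0.24 (limma adjusted p = 0.268).

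USP1, which deubiquitinates FANCD2 and PCNA, also had groups that did not overlap. Its controls lay between 10.93 and 11.01 and its mimic arrays between 11.02 and 11.12. The difference was small, a log2 difference of 0.09 or 1.06-fold (limma adjusted p = 0.419). USP37, a protease that acts on cyclin A, had 0.13 and USP53 had 0.16. USP30, which is anchored in the mitochondrial outer membrane and opposes mitophagy, had 0.11, and USP49 had 0.15. The largest of the proteases was USP12 at 0.23, where the mimic arrays spread from 7.02 to 7.56 and 5 of 6 lay above the control mean. USP6NL had 0.20 and the pseudogene USP32P1 had 0.22, the latter at a mean of 3.23, low on the scale.

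Other proteases of known role differed less. USP14, a protease bound to the proteasome, had 0.08 with a 95% interval of -0.004 to 0.16. USP7, the protease of MDM2 and p53, had 0.04 with a 95% interval of -0.03 to 0.12. USP22, the protease of the SAGA complex, had -0.01 with a 95% interval of -0.10 to 0.07, and 0.0009 with arrays centred on their medians. USP18, which removes ISG15, had -0.07. USP17L12 and USP17L9P, copies of a repeated gene, had identical values on every array, so the 308 genes rest on 307 distinct rows.

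**Figure D3:**
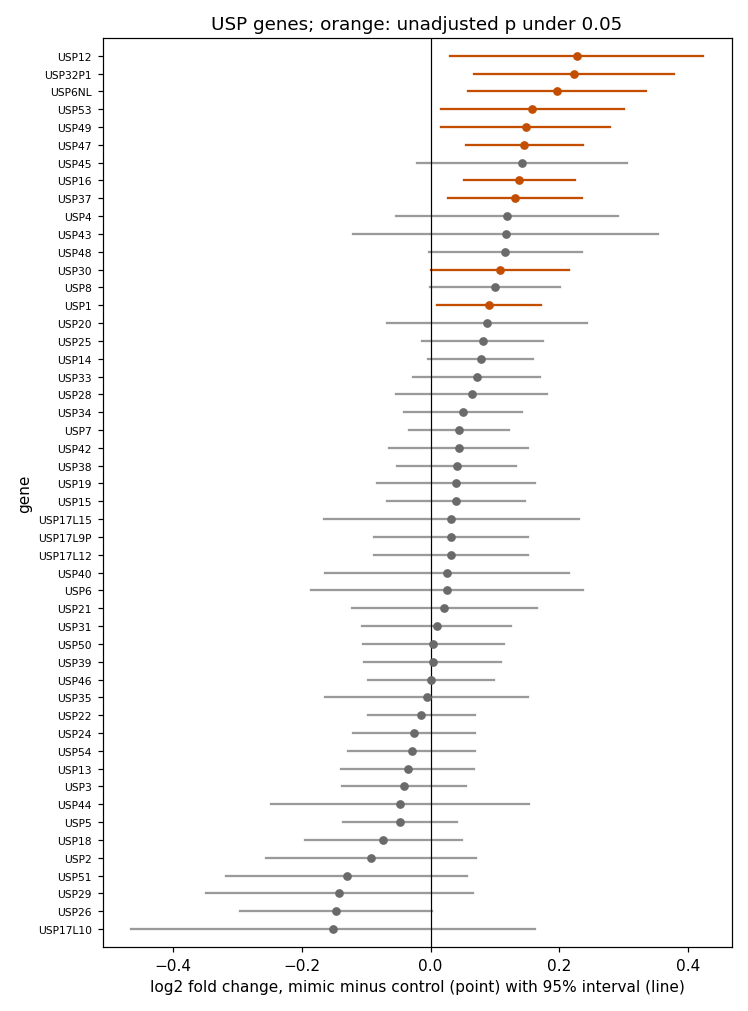
Log2 fold change (mimic minus control, horizontal axis) of each of the 50 USP genes (vertical axis, sorted by size), with points for the estimate and lines for the 95% interval; orange marks an unadjusted p under 0.05. All 10 orange genes lie right of 0, and 36 of the 50 points do.

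**Figure D4:**
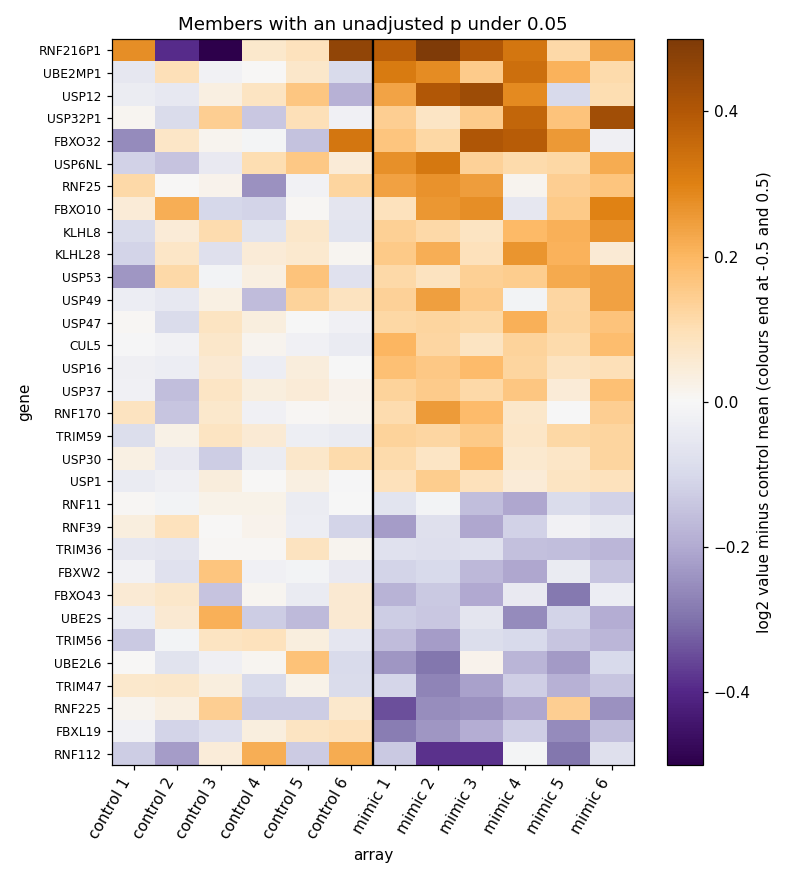
Log2 value minus the control mean (colour, ending at -0.5 and 0.5) of the 32 members with an unadjusted p under 0.05 (vertical axis) on each of the 12 arrays (horizontal axis, controls left of the line). The rows were picked for their difference on these arrays; RNF216P1 varies widely among the controls, and for USP12 5 of 6 mimic arrays lie above the control mean.

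Genes of the ubiquitin system, all but RNF31 outside the members, were read from 7 lists, and 0 of their genes passed with limma over all clusters, beside 0 of all named genes. At an unadjusted p under 0.05 the members of each list that reached it were all higher, in 6 of the lists. In named genes with a mean no lower than the all-cluster median, where nearly all of these genes lie, 8.36% were higher and 3.77% lower at that level. Most of the listed genes also lie in the brightest 25% of clusters, with a mean of at least 6.29. Of named genes there, 11.04% were higher and 3.02% lower, so the background of that brightness leaned to higher values as well. Among ubiquitin, activating enzyme and NEDD8 genes 3 of 10 measured were higher (30%). NAE1 and UBA3, the subunits of the NEDD8-activating enzyme, had log2 fold changes of 0.11 and 0.09, and UBA6, an activating enzyme of ubiquitin and FAT10, had 0.11 (limma adjusted p = 0.383, 0.445 and 0.402). The groups overlapped in all 3 of these genes.

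Other ligase classes gave a few genes each. Of 26 HECT and UBR ligases measured, 3 were higher (11.5%) at an unadjusted p under 0.05. UBR3, a ligase of the UBR family, went from 8.59 ± 0.05 to 8.74 ± 0.04 (SD, n = 6 each), a log2 difference of 0.16 with no overlap of the groups (limma adjusted p = 0.241). HACE1, a HECT ligase of RAC1, had 0.20 (limma adjusted p = 0.357). Of 16 subunits and activators of the anaphase-promoting complex, 3 were higher (18.8%). CDC23 had 0.14 with no overlap of the groups and ANAPC4 had 0.13 (limma adjusted p = 0.292 and 0.363). Of 27 cullin partners and COP9 signalosome subunits 1 was higher (3.70%), KCTD10, a CUL3 adaptor, at 0.18 (limma adjusted p = 0.261). KBTBD6, another CUL3 adaptor, had 0.26 with an unadjusted p of 0.0540.

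Of 28 other RING and U-box ligases 2 were higher (7.14%). This list also holds RNF31, a member counted above as well, which had 0.07 with an unadjusted p of 0.354. PELI1 had 0.15 and UBE4A, a chain elongation factor, had 0.09 (limma adjusted p = 0.392 and 0.418). Of 18 deubiquitinases of other classes 4 were higher (22.2%) and 0 lower. In this list 16 genes lie in the brightest 25% of clusters, where 11.04% of named genes were higher and 3.02% lower. OTUD6B had 0.18 and ATXN3, the ataxin-3 protease, had 0.15 (limma adjusted p = 0.258 and 0.309). UCHL3 and UCHL5 had 0.12 and 0.11. Only 4 of 40 listed proteasome genes and cofactors were named on the array, and 0 of them had an unadjusted p under 0.05. The proteasomal receptor ADRM1 had -0.06 and UFD1, a cofactor of the VCP segregase, had -0.03 in that list.

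A second limma test used only the brightest 25% of clusters, those with a mean of at least 6.29, and adjusted within them. It held 170 members, of which 5 passed. UBE2MP1, CUL5, USP16 and USP47 rose and FBXL19 fell. They are 2.94% of these members, beside 1.57% of the 6432 named genes in that test (1.4% higher and 0.171% lower). The limma adjusted p was 0.0369 for UBE2MP1, 0.0381 for FBXL19, 0.0428 for USP16, 0.0434 for CUL5 and 0.0456 for USP47. TRIM47, at 0.0507, was just outside and UBR3, which is no member, passed at 0.0380. That FBXL19 passes was known when this test was chosen.

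These 5 calls were unstable. Leaving out 1 array left 0 calls for control replicates 1, 2, 4 and 6 and for mimic replicates 1, 2 and 3. It left 1 call for mimic replicate 6, 2 for control replicate 5 and as many for mimic replicate 4, and 4 for control replicate 3. Without mimic replicate 5 there were 3 member calls, and of the 5 only UBE2MP1 and USP16 were among them. The count was 0 in the brightest 40% of clusters, 2 with arrays centred on their medians (UBE2MP1 and USP47), and 4 after quantile normalization (2 higher and 2 lower, with UBE2MP1, USP16 and FBXL19 among them). With a replicate block it was 0. A trend and robust prior gave 5. The sizes moved little: FBXL19 stayed between -0.24 and -0.19 over all alternatives, UBE2MP1 between 0.21 and 0.26 and CUL5 between 0.11 and 0.15.

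**Figure D5:**
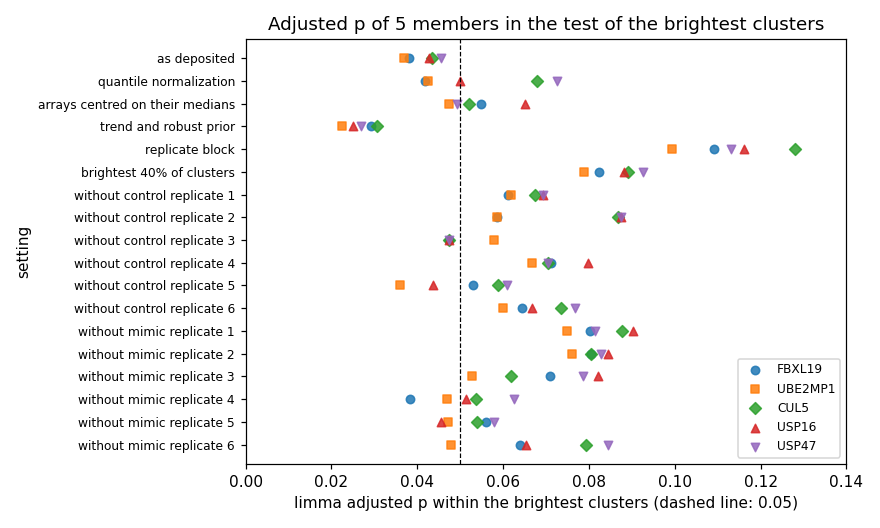
Limma adjusted p (horizontal axis, dashed line at 0.05) of 5 members in the test of the brightest 25% of clusters under each setting (vertical axis; the brightest 40% where named). As deposited all 5 lie left of the line, between 0.0369 and 0.0456, and with a replicate block all 5 lie right of it.

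In 14 members several rows carried the gene's name, and the row with the highest mean was used. Several lie in the major histocompatibility region, where RNF39 had 5 rows with the same values. TRIM27 had 8 rows, all with a log2 fold change above 0 (0.06 to 0.13), and RNF39 had 7 rows in all, from -0.14 to -0.02. In KLHL42 the row used had -0.04 and the others 0.07 and 0.23, and in FBXO22 the row used had -0.04 and the other 0.19. With the mean of all rows of a gene the count at an unadjusted p under 0.05 was again 32, of which 20 were higher.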

How the data were processed

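Affymetrix Human Gene 2.0 ST arrays of 12 samples were read from 1 table. The deposited values were taken as log2 expression. The submitters' processing notes name Affymetrix Expression Console; for its version, background correction and normalization, none of the sources used here gives a setting, and log2 was inferred from the range (1.62 to 14.4; array medians 4.44 to 4.51). Signal over background was not measured. Separately, the number of arrays limits the precision. Of 53617 clusters, 16098 had 1 gene symbol in GEO's platform annotation, 0 had several and 37519 were unnamed here. A gene stands for its row with the highest mean.

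Mimic was compared with control with lmFit and eBayes (limma 3.58.1, R 4.3.3, two-sided) over all clusters, with Benjamini-Hochberg adjustment and a threshold of 0.05. Every adjusted p and interval comes from limma. The script was tested on simulated data. The members, gene lists and tests were chosen with earlier results of these data known. Genes named: FBXL19, all cullins, the 2 smallest p per family at or above the median mean, members called in the brightest 25%, 26 genes of known role (14 measured here) and the 2 smallest p per list. Any other gene was named after its values were seen. Alternatives were quantile normalization, centring, a trend and robust prior, a replicate block, filters on low values, the mean of a gene's rows and leaving out each array.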

Additional observations from a re-analysis of the deposited data

Results flagged for a closer look

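Each of the 38 named genes was examined in both groups, and in 3 of these 76 sets of 6 arrays an extreme array lay far from its neighbours by Dixon's criterion, a rate below the roughly 1 in 20 that chance alone produces. For CUL2 this was mimic replicate 4, at 9.78 below the remaining mimic arrays at 9.95 to 10.01. Without it the log2 difference of CUL2 was 0.09 in place of 0.06. For CUL4B it was control replicate 2, at 9.29 below the remaining controls at 9.35 to 9.39. For FBXW2 it was control replicate 3, at 8.66 above the remaining controls at 8.42 to 8.48.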

How the results depend on the processing

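The count of 0 members called over all clusters was 0 under every alternative run, and the count of 32 at an unadjusted p under 0.05 stayed within 25 to 43. The median of the members was -0.01 to 0.02, with a sign that turned after quantile normalization and without control replicate 6, as did that of all named genes. In the brightest 25% of clusters the 5 calls became 2 after centring each array on its median, 0 with a replicate block and 0 in the brightest 40%, and 0 to 4 without single arrays; the cause was not tested. The sample titles do not say whether the replicate numbers pair the samples. Deviations of same-numbered arrays correlated between -0.11 and 0.08. Of 6 controls, 0 correlated best with the mimic array of their own number, so no pairing was seen in the values. With the block 28 members had an unadjusted p under 0.05. Among the 38 named members, the sign turned for CUL1, FBXW11, KLHL12, UBE2N and USP22 under at least 1 alternative, and 0 passed the threshold over all clusters under any. The planned comparison with olfactory receptor rows as a low end was not run, because 1 such row was named. With 6 arrays a group, the median standard error of the members' log2 differences was 0.06, and signal over background was not measured.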
